A study of Mus musculus with 3 samples.

Results

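The expression of 10 genes that set how readily a cell enters apoptosis was followed in mouse liver carrying human YAP. They were Bcl2, Bcl2l1, Mcl1, Bcl2l11, Bid, Bmf and Bak1 of the BCL2 family, and Birc2, Birc3 and Xiap of the inhibitor of apoptosis proteins (IAPs). They formed a list of genes by name, and every probe of each of them was used. The 10 genes had 12 of the 55681 probes on the array. Of them, 9 genes were measured well above background on all 3 arrays, among 13626 such genes in all, and Bcl2l11 was not.

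The livers came from c57BL6/J mice and were labelled as expressing wild-type human YAP (WT) or its active mutants 1SA and 2SA, at 2 days. Each group had 1 array, and nothing in the labels says if its RNA came from 1 mouse or several. The WT array has the number 2 in its title. Per the methods, male mice of 8 weeks were mainly used, and YAP plasmids were delivered by hydrodynamic tail vein injection (HTVi) in the vector pLIVE. This vector uses the AFP enhancer II and a minimal albumin promoter, which are active in hepatocytes. The injection is itself injurious to liver cells and reaches only some hepatocytes, so the RNA held transfected cells, untransfected cells and all other cell types of the liver. All 3 groups had the injection and human YAP in common, and uninjected liver was not analysed here. Since this was bulk tissue, fewer cells of a type and less RNA per cell cannot be told apart.

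Apoptosis through mitochondria is decided by the balance within the BCL2 family. BCL2, BCL-XL (Bcl2l1) and MCL1 hold the effectors BAX and BAK in check, and BH3-only proteins such as BIM (Bcl2l11), BID and BMF free the effectors to open the outer membrane. IAPs act further down: XIAP blocks caspases directly, and cIAP1 (Birc2) and cIAP2 (Birc3) are ubiquitin ligases of the tumour necrosis factor (TNF) receptor complex. Hepatocytes depend on BCL-XL and MCL1 for survival. YAP acts through TEAD transcription factors, which its mutants escaping Hippo inhibition can reach in the nucleus.

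The promoters of the pro-survival members are shown because YAP works through TEAD sites. The windows ran from 250 bases before to 50 after each start site in RefSeq annotation of GRCm38.p6, and the 10 genes had 18 such windows. The TEAD core GGAATG, or CATTCC on the other strand, stood in 2 of the 18, and in 14.7% of all 32851 promoters in the table. The windows printed are the pair with the core, which is in capitals. They were chosen for printing after expression values had been seen. The first, on the minus strand at chr2:152831679-152831978, is of Bcl2l1 and has its match from position -108 relative to the start site. The other, on the plus strand at chr3:95658471-95658770, is of Mcl1 and has its match, as CATTCC, from -199.
Bcl2l1: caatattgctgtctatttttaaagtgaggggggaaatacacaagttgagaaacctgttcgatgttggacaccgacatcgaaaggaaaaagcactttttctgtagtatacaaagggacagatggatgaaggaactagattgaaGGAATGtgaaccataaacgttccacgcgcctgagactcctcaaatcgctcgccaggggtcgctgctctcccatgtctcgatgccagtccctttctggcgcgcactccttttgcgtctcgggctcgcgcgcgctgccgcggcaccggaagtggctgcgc
Mcl1: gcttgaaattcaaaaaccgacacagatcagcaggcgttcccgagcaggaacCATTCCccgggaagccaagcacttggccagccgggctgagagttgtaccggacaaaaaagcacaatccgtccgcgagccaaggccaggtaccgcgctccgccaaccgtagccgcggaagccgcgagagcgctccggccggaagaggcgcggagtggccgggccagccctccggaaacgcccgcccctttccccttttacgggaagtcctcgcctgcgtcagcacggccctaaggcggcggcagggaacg
A match describes the letters alone. Of the 2 genes with the core, Bcl2l1 separated the arrays and Mcl1 did not, as the values of each show.

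Values are given as scaled intensity, the intensity of a probe divided by its array's 75th percentile, and differences are on the log2 scale. With 1 array per group no test between groups was possible. The only repeat measurement was the scatter of repeated spots on an array, and a difference is called past its limit when it exceeds 2 SDs of a difference between such spots of like signal. This limit, from 0.15 to 0.35 over the member probes, covers spot error and leaves out how far animals differ.

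Among the pro-survival genes, Bcl2l1 differed between the arrays by more than spot error in every comparison. Its brighter probe (NM_009743) had a scaled intensity of 24.3 in WT, 21.5 in 1SA and 28.8 in 2SA. 1SA was thus the lowest array and 2SA the highest. The level in 1SA differed from WT by -0.18 (limit 0.15) and the level in 2SA by 0.24 (limit 0.15). 2SA exceeded 1SA by 0.42, or 1.34-fold (limit 0.15). Of all measured genes, 19% lay at least as far apart between 2SA and 1SA. The dimmer Bcl2l1 probe kept the order at 0.576 in WT, 0.415 in 1SA and 0.650 in 2SA. By this probe 1SA stood at -0.47 relative to WT (limit 0.29) and 2SA at 0.17 (limit 0.26), and 2SA exceeded 1SA by 0.65 (limit 0.28). The 2 probes therefore gave 1 direction and unequal sizes, and between 2SA and 1SA the dimmer probe was 1.57-fold apart. With each array's median as the scale, the difference of the brighter probe between 1SA and WT was -0.14 and no longer passed its limit.

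Bcl2, the founding member of the family, followed the same order only in part. Its probe (NM_177410) had a scaled intensity of 0.339 in WT, 0.259 in 1SA and 0.343 in 2SA. 1SA stood below the other arrays, and WT and 2SA did not separate. The difference of 1SA from WT was -0.39 (limit 0.35) and that of 2SA from 1SA was 0.41 (limit 0.34), against 0.02 between 2SA and WT (limit 0.32). The gene was dim, at 71.4 to 109.6 units of intensity before scaling, and the stricter filter on dim probes removed it. With normexp 1SA stood at -0.17 relative to WT and 2SA at 0.23 relative to 1SA, and neither difference passed its limit.

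Mcl1, a short-lived protein on which hepatocytes rely, was within spot error throughout. Its brighter probe (NM_008562) had a scaled intensity of 33.3 in WT, 31.2 in 1SA and 34.1 in 2SA, and the dimmer probe 5.53, 5.03 and 5.19. The 3 arrays did not separate by either probe. The 6 differences of the 2 probes ran from -0.14 to 0.13, with limits of 0.15 for the brighter and 0.19 for the dimmer. Quantile normalisation gave the brighter probe -0.16 in 1SA against WT and 0.22 in 2SA against 1SA, and the deposited matrix gave 0.20 in the latter, all past the limit.

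**Figure D1:**
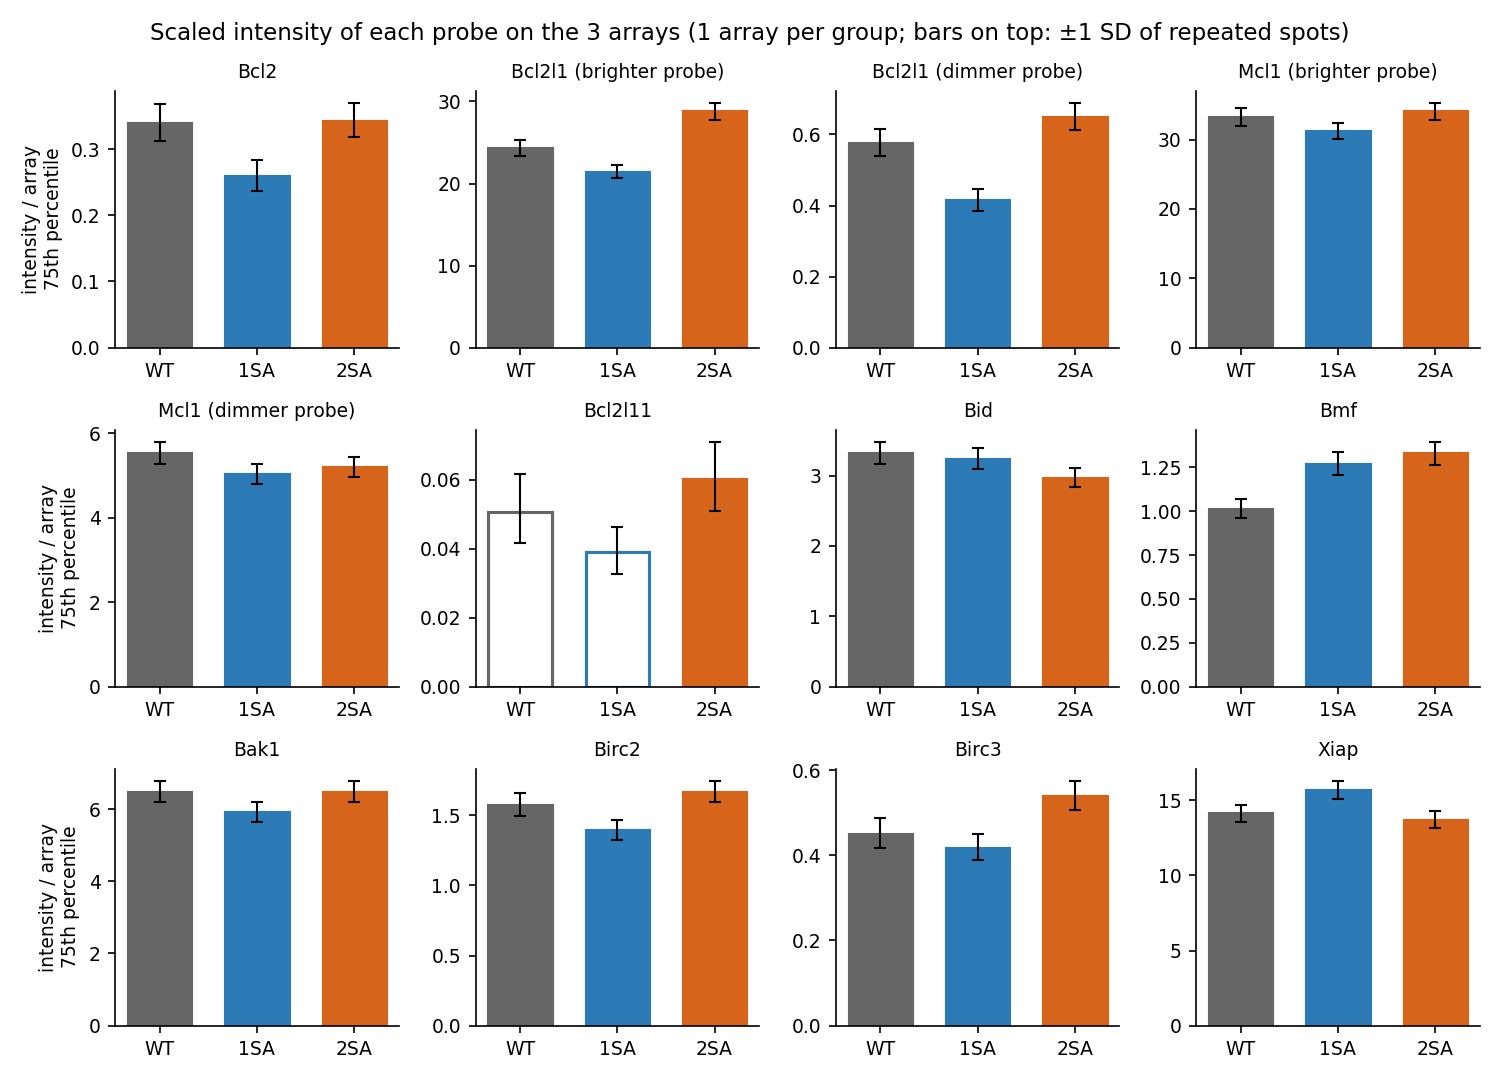
Scaled intensity (intensity divided by the array's 75th percentile, linear axis from 0) of the 12 probes of the 10 genes on the WT, 1SA and 2SA arrays, 1 array per group. Error bars are 1 SD of repeated spots of like signal on that array, and open bars were not well above background. Bcl2l1 ran from 21.5 in 1SA to 28.8 in 2SA, Bmf was lowest in WT at 1.01, and Bcl2l11 was measured in 2SA alone.

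Among the pro-death genes, Bmf was the member that stood higher in both mutants. BMF is a BH3-only protein held at the cytoskeleton and known for its part in anoikis, the death of cells that lose attachment. Its probe (NM_138313) had a scaled intensity of 1.01 in WT, 1.27 in 1SA and 1.33 in 2SA. WT was the lowest array, and 1SA and 2SA did not separate. The level in 1SA exceeded WT by 0.32, or 1.25-fold (limit 0.22), and that in 2SA exceeded WT by 0.39, or 1.31-fold (limit 0.21). 2SA and 1SA differed by 0.07 (limit 0.21). Of all measured genes, 20.5% lay at least as far from 0 in 1SA against WT and 14.7% in 2SA against WT. Both differences share the WT array.

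Bid links death receptors to mitochondria once caspase-8 cleaves it, and its level varied little. Its probe (NM_007544) had a scaled intensity of 3.32 in WT, 3.24 in 1SA and 2.97 in 2SA. Relative to WT, 1SA stood at -0.04 and 2SA at -0.16, and 2SA stood at -0.13 relative to 1SA, with limits of 0.18 to 0.19. No pair of arrays separated.

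Bcl2l11 encodes BIM, a potent BH3-only protein that binds all pro-survival members. Its probe (NM_207680) was well above background on the 2SA array only, with intensities of 14.7 in WT, 10.7 in 1SA and 19.2 in 2SA before scaling. At this brightness the SD of a repeated spot was 0.24 to 0.28 on the log2 scale. The scaled level in 2SA lay 0.25 above WT (limit 0.75) and 0.63 above 1SA (limit 0.70), both within spot error, so no pair of arrays separated.

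Bak1, the pore-forming effector of the list, had a scaled intensity of 6.48 in WT, 5.91 in 1SA and 6.47 in 2SA (NM_007523). The difference was -0.13 for 1SA against WT (limit 0.19) and 0.13 for 2SA against 1SA (limit 0.18). The arrays of WT and 2SA gave nearly the same value, and no pair separated. By the deposited matrix 2SA exceeded 1SA by 0.21, which passed the limit.

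Among the IAPs, Birc2 and Birc3 were higher in 2SA than in 1SA, and Xiap was lower. Birc2 (NM_007465) had a scaled intensity of 1.58 in WT, 1.39 in 1SA and 1.67 in 2SA. Birc3 (NM_007464) had 0.451 in WT, 0.418 in 1SA and 0.539 in 2SA. Both genes, neighbours on chromosome 9 with related products, were lowest in 1SA and highest in 2SA. For Birc2, 2SA exceeded 1SA by 0.26, or 1.20-fold (limit 0.20), and for Birc3 by 0.37, or 1.29-fold (limit 0.28). Between these arrays, 36.3% of all measured genes lay at least as far apart as Birc2 and 23.2% as Birc3. Birc3 was dim, at 115.2 to 172.2 units of intensity before scaling, and the stricter filter on dim probes removed it. With normexp both genes had a difference of 0.20, within the limit. Neither gene separated from WT in either mutant. The differences of Birc2 from WT were -0.18 in 1SA (limit 0.21) and 0.08 in 2SA (limit 0.20). Those of Birc3 were -0.11 in 1SA (limit 0.31) and 0.26 in 2SA (limit 0.29). By the deposited matrix, Birc2 in 1SA (-0.23) and Birc3 in 2SA (0.29) passed the limit against WT.

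Xiap, the direct inhibitor of executioner and initiator caspases, had the opposite order. Its probe (NM_009688) had a scaled intensity of 14.1 in WT, 15.7 in 1SA and 13.7 in 2SA. The level in 2SA differed from that in 1SA by -0.19 (limit 0.16), and 47.9% of all measured genes lay at least as far apart. WT lay between without separating from 1SA (0.15, limit 0.16) or from 2SA (-0.04, limit 0.16). With quantile normalisation the difference between 2SA and 1SA was -0.13, and with the deposited matrix it was -0.12, both within the limit, while the array median put 1SA past it above WT at 0.19. The summed scaled intensity of 8 hepatocyte markers had the same order, at 3580 in WT, 3875 in 1SA and 3179 in 2SA. Alb alone gave 1279, 1369 and 1045 of these sums. All 8 were measured on each array, but not all shared the order of the sum. In 1SA against WT 6 were higher and 2 lower, Apoa1 (-0.23) and Apob (-0.07). Of these, 3 of the higher and 1 of the lower were past their limit. In 2SA against WT 7 were lower, 4 of them past their limit, and Apoa1 was level at 0.0005. The part of hepatocyte markers in the Xiap values was not tested.

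**Figure D2:**
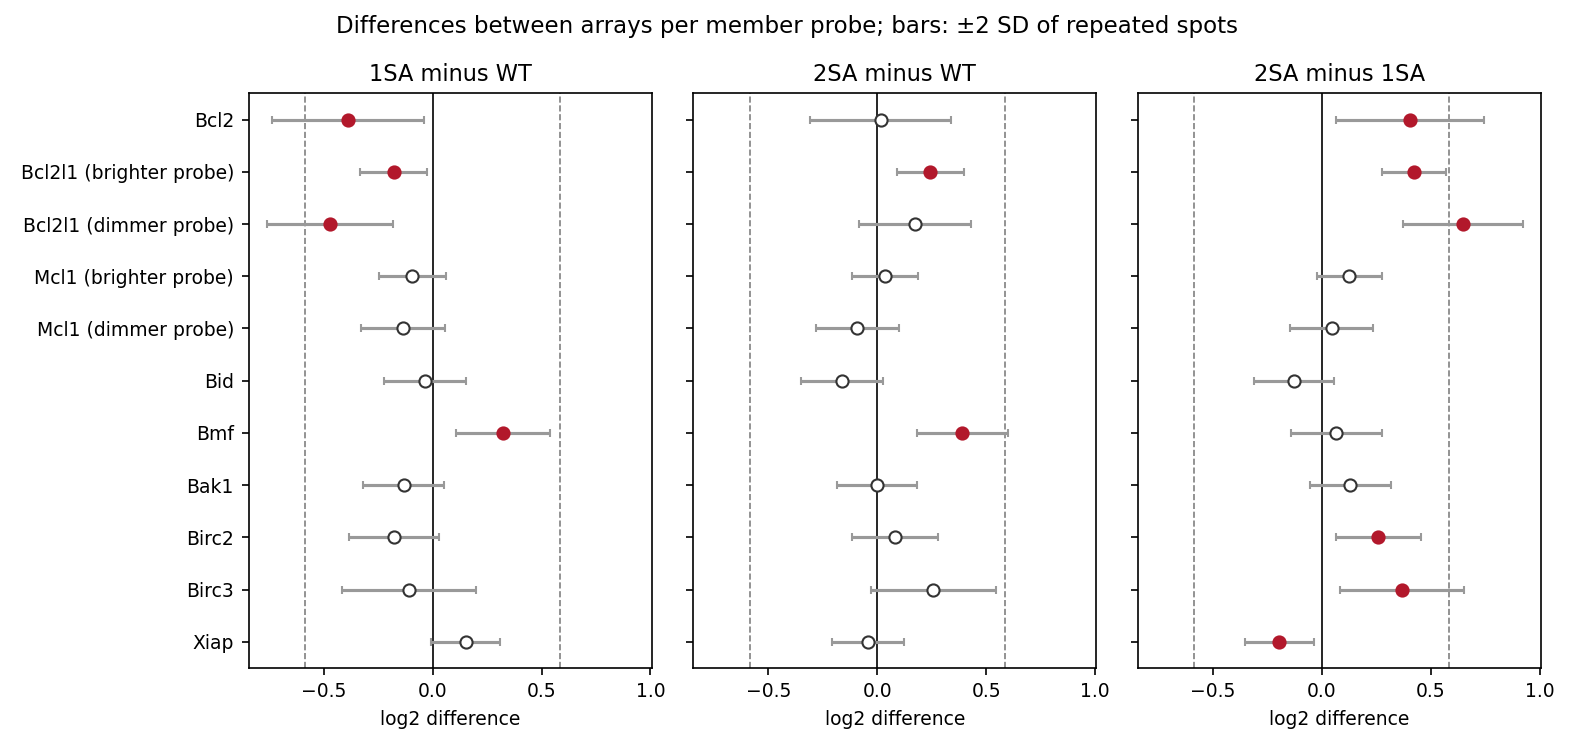
Log2 difference of each member probe measured on all 3 arrays, for 1SA minus WT, 2SA minus WT and 2SA minus 1SA. Bars are 2 SDs of a difference between repeated spots, filled points lie past that limit, and dashed lines mark 1.5-fold. Bmf lies to the right of 0 in both mutants against WT, and Bcl2, Bcl2l1, Birc2 and Birc3 lie to the right in 2SA against 1SA.

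Set against all measured genes, the members' differences were of ordinary or small size, while the counts past the limit varied by comparison. In 1SA against WT, 1 of the 9 measured members was past its limit on the higher side (Bmf) and 2 on the lower side (Bcl2 and Bcl2l1). The shares of all genes were 14% higher and 14.9% lower. In 2SA against WT, 2 members were past it on the higher side (Bcl2l1 and Bmf) and 0 on the lower, beside 13.1% and 16.1% of all genes. In 2SA against 1SA, 4 were higher (Bcl2, Bcl2l1, Birc2 and Birc3) and 1 lower (Xiap), beside 18.5% and 22.1% of all genes. With normexp background correction, where the SD of a difference between repeated spots was 0.21 to 0.22 in place of 0.09 to 0.10, 0 members passed the limit in any comparison. By its brightest probe, none of the 9 measured members reached 1.5-fold in any comparison, although the dimmer Bcl2l1 probe did in 2SA against 1SA. That size was reached on the higher and lower sides by 3.08% and 4.67% of genes in 1SA against WT. The same shares were 3.79% and 3.02% in 2SA against WT, and 6.99% and 4.56% in 2SA against 1SA.

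The median difference of the 9 members was -0.11 in 1SA against WT, 0.03 in 2SA against WT and 0.13 in 2SA against 1SA. Over all genes these medians were -0.0017, -0.03 and -0.03. The median size of a member's difference, whatever its sign, was 0.15, 0.08 and 0.19, next to 0.14, 0.14 and 0.18 over all genes. The sizes were thus those of any gene, and for 2SA against WT smaller. Where a gene had 2 measured probes, their differences lay 0.12 apart at the median and 0.43 to 0.45 apart at the 90th percentile, and no difference of a member by its brightest probe exceeded that 90th percentile.

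The order of the arrays, rather than size, was what several members shared. Of the 9, 5 ran from 1SA through WT to 2SA (Bcl2, Bcl2l1, Mcl1, Birc2 and Birc3), as did 20% of all genes. Bcl2l1 alone of them separated from WT in both mutants. In the others 2SA was within spot error of WT, and so was 1SA in all but Bcl2. In 4 of these 5, all but Mcl1, 2SA was also past its limit above 1SA, and 12.8% of all genes met both conditions. Xiap ran the opposite way, with 26.1% of all genes, Bid and Bak1 were highest in WT, with 30.3%, and Bmf was lowest in WT, with 23.6%. Bak1 joined the first order with the array median, normexp or the matrix, where 2SA exceeded WT by 0.013 to 0.027, and Mcl1 left it with the mean of its probes.

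**Figure D3:**
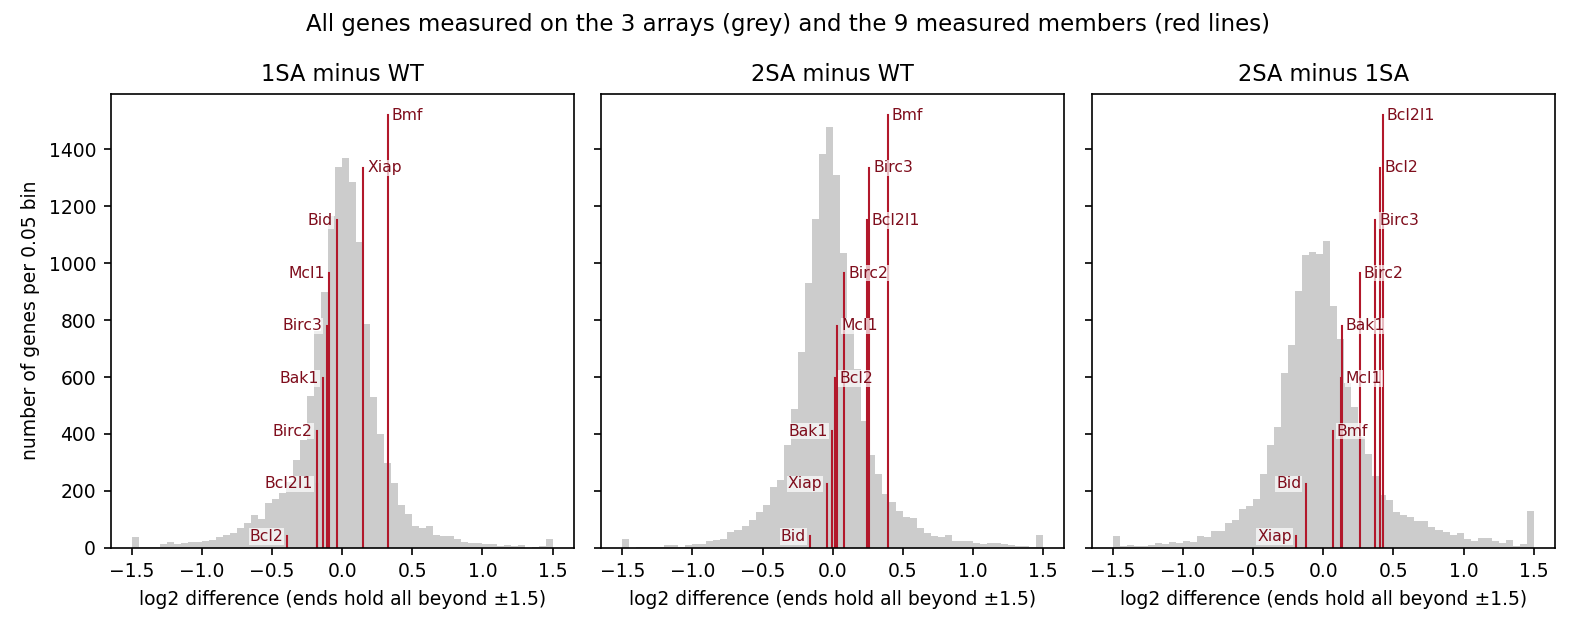
Number of genes per bin of 0.05 log2 units (grey, 13626 genes measured on all 3 arrays) for each comparison, with the 9 measured members as red lines whose height only separates the names. The members lie inside the body of each distribution, none beyond 0.58, the log2 of 1.5-fold.

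Markers of other liver cells differed between the same arrays. The 5 bile duct markers (Krt19, Krt7, Epcam, Sox9 and Spp1), all measured, summed to a scaled intensity of 13.1 in WT, 4.30 in 1SA and 10.8 in 2SA. Most of that sum was Spp1, at 12.2, 3.66 and 9.80. All 5 were lower in 1SA than in WT, with a median of -0.82, though the dim Krt7 (-0.73, limit 0.75) was within spot error. All 5 were higher in 2SA than in 1SA, with a median of 0.82. In 1SA against WT, Bcl2 and Bcl2l1 were past their limit on the lower side, as were 14.9% of all genes. Birc2, Birc3, Mcl1, Bak1 and Bid lay below WT within spot error, and Bmf and Xiap lay above it. In all, 7 of the 9 measured members were lower in 1SA than in WT, as were 6851 of 13626 genes. The 6 Kupffer cell markers summed to 199.2, 142.9 and 98.5, and their median was -0.94 in 2SA against WT. In 1SA against WT their median was -0.39, with 4 lower and 2 higher, Clec4f (0.45) and Vsig4 (0.07). Stellate cell markers (4 of 5 measured) stood at 0.02 in 1SA and -0.59 in 2SA against WT at the median. For the 6 markers of sinusoidal endothelium the medians were 0.03 and -0.12. The 6 cell cycle genes summed to 5.04, 8.80 and 8.57, so that WT was lowest there as it was for Bmf. Granulocyte and monocyte markers (5 of 8 measured) summed to 136.9 to 140.7, a sum made up mostly of Csf3r. Among them Ccr2 was lowest in WT, with 2.33 in 1SA and 0.85 in 2SA against it. S100a8 lay at 0.23, within its limit of 0.28, and at 0.44. The other measured markers were lower in 1SA than in WT, S100a9 at -0.11, Itgam at -0.19 and Csf3r at -0.05. In 2SA against WT these lay at 0.13, -0.17 and 0.0002. Red cell markers (2 of 4 measured) summed to 54.6 in WT, 91.0 in 1SA and 68.1 in 2SA. Lymphocyte markers (6 of 8 measured) had medians of 0.04 in 1SA and 0.11 in 2SA against WT. The part of these cell types in the members' values was not tested.

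Another 60 genes of the pathway, in 5 lists, show what surrounded the members. Of these, 58 had a probe and 53 were measured on all 3 arrays. At 1.5-fold, 0 were higher and 5 lower in 1SA against WT, 3 were higher and 1 lower in 2SA against WT, and 8 were higher and 0 lower in 2SA against 1SA. Their medians were -0.06, 0.04 and 0.06. Between the mutants every gene of these lists past 1.5-fold was higher in 2SA, and 60.5% of such calls over all genes were higher. These genes include the close copies Bcl2a1c and Bcl2a1d and the dim Apaf1. The shares of all genes at 1.5-fold were 3.08% higher and 4.67% lower in 1SA against WT. They were 3.79% and 3.02% in 2SA against WT, and 6.99% and 4.56% in 2SA against 1SA.

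Of the other pro-survival genes, 4 of 7 were measured, and the Bcl2a1 genes stood furthest apart. BCL2A1 is an NF-kB-induced relative of BCL2 found mainly in blood cells. Bcl2a1d (NM_007536) had a scaled intensity of 3.69 in WT, 2.10 in 1SA and 4.85 in 2SA, a difference of -0.81 in 1SA and 0.40 in 2SA against WT. Bcl2a1c (NM_007535) had 0.301, 0.146 and 0.467, with differences of -1.04 and 0.63. Both were lowest in 1SA and highest in 2SA, 1.21 and 1.67 apart on the log2 scale. The Bcl2a1 genes are near-identical copies, so their probes may share transcripts and the 2 values may not be separate measurements. Bcl2l2 and Bcl2l12 were within 0.20 of WT in both mutants. Bcl2l10 was not measured, and Bcl2a1a and Bcl2a1b had no probe named for them.

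Of the other pro-death genes, 10 of 11 were measured. Bbc3 encodes PUMA, a BH3-only protein induced by p53, and Pmaip1 encodes NOXA, a BH3-only partner of MCL1. Bbc3 (NM_133234) had a scaled intensity of 2.72 in WT, 3.53 in 1SA and 4.57 in 2SA, differences of 0.38 and 0.75. Like Bmf it was lowest in WT, though 2SA stood above 1SA by 0.37. Pmaip1 (NM_021451) had 0.460, 0.283 and 0.532, differences of -0.70 and 0.21, the order of Bcl2l1. Bax (NM_007527), the other pore-forming effector, had 7.77, 6.13 and 9.51, differences of -0.34 and 0.29. 2SA exceeded 1SA by 0.63 for Bax, next to 0.13 for Bak1. Bcl2l14 (NM_025778) was the only gene of the list past its limit below WT in both mutants, at 0.457, 0.248 and 0.253, differences of -0.88 and -0.85. The median of the list was -0.08 in 1SA and 0.02 in 2SA.

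Among the other IAP genes and their antagonists, 10 of 11 were measured. Birc5, survivin, serves in mitosis as well as survival, and had 7.54 in WT, 10.8 in 1SA and 9.78 in 2SA by its brightest probe (NM_001012273). Its differences from WT were 0.51 and 0.38 by that probe, and up to 0.99 and 0.83 over its 3 measured probes. The cell cycle genes, at medians of 0.84 and 0.95, were higher in the same arrays, and their part in the Birc5 values was not tested. Htra2, a mitochondrial protease that counters IAPs, was higher in 2SA at 0.60 by its brighter probe and 0.63 by the other, and in 1SA lay at -0.06. Xaf1, an interferon-induced antagonist of XIAP, had -0.41 in 1SA and 0.31 in 2SA. Septin4, which has an isoform that binds XIAP, had 0.26 and -0.24. Of the NAIP genes, which act in inflammasomes, Naip6 had -0.62 in 1SA and -0.17 in 2SA, and Naip1 was not measured in 2SA. The NAIP genes are close copies too, so the Naip6 value is uncertain.

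Of the apoptosome and caspase genes, 14 of 15 were measured, with medians of -0.03 in 1SA and 0.03 in 2SA. Apaf1, the scaffold of the apoptosome, had -0.53 in 1SA and 0.53 in 2SA, within its limits of 0.76 and 0.68 because its probe was dim (18.0 to 43.4 units of intensity). Only its difference between 2SA and 1SA, 1.06, exceeded the limit of 0.63. Cflar encodes the caspase-8 inhibitor cFLIP and lay at -0.06 and -0.41 by its brightest probe, while over its 3 probes 2SA ran from -0.41 to 0.24. The probes of Cflar thus disagreed in sign.

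Of the TNF and NF-kB genes, in whose complexes the products of Birc2 and Birc3 act, 15 of 16 were measured. Traf1, an adaptor that binds them and an NF-kB target, had -0.24 in 1SA and 0.36 in 2SA, with 0.60 between the mutants. Tnfaip3, the feedback inhibitor A20, had -0.22 and 0.36. Relb, a subunit of NF-kB, had -0.28 and 0.31 by its brighter probe, although its other probe gave 0.05 in 1SA. These 3 genes had the order of Birc3, but in 1SA against WT all 3 were within their limits, as was Traf1 in 2SA against WT. Traf3 and Rela had the opposite order, at 0.10 and -0.38 and at 0.17 and -0.18. Tnf itself was well above background in 2SA only. The medians of the list, -0.07, 0.04 and -0.02 for the 3 comparisons, did not stand apart from 0.

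**Figure D4:**
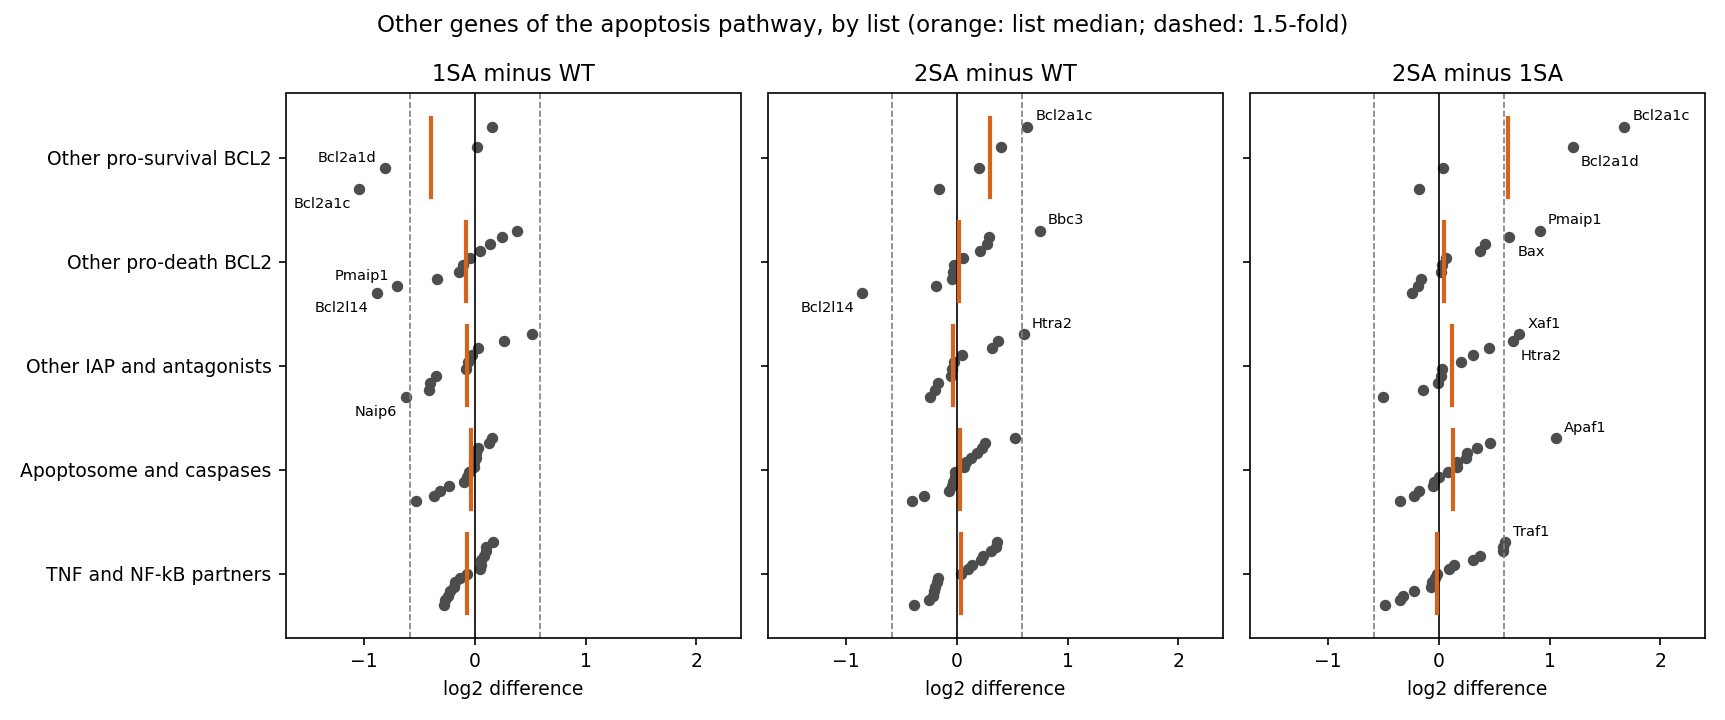
Log2 difference of the 53 measured genes of the 5 other apoptosis lists in each comparison, 1 point per gene, sorted within its list. Orange lines are list medians and dashed lines mark 1.5-fold, past which genes are named. Bcl2a1c and Bcl2a1d lie left of the line in 1SA against WT and furthest right in 2SA against 1SA, at 1.67 and 1.21.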

How the data were processed

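Cy3-labelled liver RNA was hybridised to 1-colour Agilent arrays, 1 per group, all on 1 slide. The authors scanned the arrays and made the deposited intensity values with Agilent Feature Extraction 10.10.1.1, which subtracts background and corrects trends within an array without scaling between arrays. Their matrix held the same intensity times a constant per array. For comparison each array's log2 intensities were centred on its 75th percentile, taken over spots other than controls.

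Spots marked as outliers were left out (148 to 182 of 59305 per array), and no spot was saturated. The 75th percentile was 275.7 to 319.5 units. A probe was measured where at least 50% of its spots were well above background. Genes were named by RefSeq accession, which matched 26762 of 55681 probes to 20284 symbols of GRCm38.p6, while the array was designed on mm9. The brightest probe measured on all 3 arrays stood for a gene.

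Repeated spots (399 probes with 10 spots per array) had a median SD of 0.07. A limit used the 50 repeated probes nearest in signal and 2 SDs of a difference. Depth does not apply to arrays, and their number limits the precision. No test between groups was run. Scripts were tested on simulated data.

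The members, the 5 lists, the markers and the 1.5-fold threshold were chosen with earlier results of these data known, and the repeated-spot limit was added after values were seen. Named genes were all members, list genes at least 1.5-fold apart in any comparison, and the highest and lowest gene of each list in each mutant against WT, of which 1 is not reported here. All 10 members matched promoters of the RefSeq table. Alternatives were quantile normalisation, the array median, normexp (limma 3.58.1 in R 4.3.3, offset 50, raw medians), the matrix, no filter or a stricter filter on dim probes, kept outlier spots, the mean of all probes, a 2-fold threshold and 3 SDs as the limit. The other steps ran in Python 3.11.15 (numpy 2.4.6, pandas 2.3.3), and plots were made with matplotlib 3.10.9.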

Additional observations from a re-analysis of the deposited data

Results flagged for a closer look

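By the brighter probe of Bcl2l1, 1SA stood at -0.18 and 2SA at 0.24 relative to WT, so that the mutants lay on opposite sides of WT and 0.42 apart on the log2 scale. With 1 array in each group this difference between the groups was not tested. The dimmer probe had the same signs.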

How the results depend on the processing

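No paired analysis was possible because there was only 1 array per group. Of 210 member differences recomputed under the alternatives, 200 stayed within 1 SD of spot error, 10 did not, and 0 of those past their limit turned sign. Many of the 200 only repeated the main value, so their number overstates how robust the values are. Without a filter, with the stricter filter and with outlier spots kept, every recomputed value was unchanged. The same held for genes with a single measured probe under the mean of all probes. Within their limits, Mcl1 in 2SA against WT became -0.028 with the mean of its probes, and Bak1 became 0.013 to 0.027 with the array median, normexp or the matrix. The members' median ran from -0.16 to -0.08 in 1SA against WT, from 0.02 to 0.06 in 2SA against WT and from 0.11 to 0.22 in 2SA against 1SA. Members past the limit numbered 3, 2 and 5 in these comparisons. With normexp they numbered 0, 0 and 0, where the SD of a difference between repeated spots was 0.21 to 0.22 in place of 0.09 to 0.10. With 3 SDs they numbered 0, 2 and 1. With the stricter filter, 7 members were left and 3 were past it in 2SA against 1SA. Without a filter 1 member, Bcl2l11, was past 1.5-fold in 2SA against 1SA, although not measured in 1SA. The median of the other pro-survival genes in 1SA against WT was -0.40 over 4 genes and 0.022 over the 3 left by the stricter filter, which drops Bcl2a1c. Over all genes, the share of higher among 1.5-fold calls was 60.5% in 2SA against 1SA and 71% with the matrix, and 55.7% in 2SA against WT, 68.8% with normexp and 47.6% with no filter on dim probes. No scaling moved the median of all genes by over 0.1.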
